A study of Mus musculus with 2 samples.

Results

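*R3hdml*, *Pdcl2*, *Lrp2*, *Mid1*, and *Ckb* are 5 genes without known imprinting whose mRNA was lower in mouse embryonic stem cells (mESCs) labelled as deficient for *Smad1* and *Smad5* than in their parental cells. They are 5 of the 31053 genes listed in the matrices and were picked by name for this difference, so the difference itself is described and not tested. The question put to them was whether their mRNA follows *Id1*, a direct SMAD target, from cell to cell in wild-type cells, or differs between the lines only. Feeder-free E14 mESCs without a genetic change (WT) gave 1 single-cell RNA-seq library, and E14 mESCs in which *Smad1* and *Smad5* had been targeted with CRISPR-Cas9 (*Smad1/5* dKO, S1/5 dKO) gave the other. Both were grown on gelatin in SL, which is medium with 15% FBS and 1000 U/ml LIF, and the labels do not say which S1/5 dKO clone was used or how many. A difference between the libraries therefore cannot be told apart from one between clones, cultures, or library preparations.

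Barcodes were taken as cells where 1000 or more genes were detected and mitochondrial transcripts took up no more than 5%. They numbered 2236 for WT, with 95965242 unique molecular identifiers (UMIs), and 2910 for the other library, with 109020533 UMIs; no cell barcode was shared. The level of a gene is given as UMIs per 1000000 UMIs (CPM) summed over the cells of a library, with an exact 95% interval that covers counting error only. *Smad1* was at 13.4 CPM in WT against 9.17 CPM in the other library, while *Smad5* was at 6.05 and 9.09 CPM. These values do not settle the genotype, because 3′ reads do not show whether an edited exon is intact. The second library is named by its label, as the library labelled S1/5 dKO. Markers of mESCs were present in both, with the 8 genes of that list (among them *Pou5f1*, *Zfp42*, and *Dppa5a*) summing to 7928 and 8152 CPM and none of the 8 changed by 2-fold. Lists of 8 primitive endoderm genes (2.83 and 2.69 CPM) and 6 fibroblast genes (0.802 and 1.05 CPM) were low, and *Col3a1* and *Lum* had no UMI in either library. The list of 7 2C-like genes (1.98 and 4.36 CPM) was carried by single cells, since 4 WT cells held 180 of its 190 UMIs and 5 cells of the other library 453 of 475. The list of 5 neural genes, led by *Tubb3*, summed to 156 and 166 CPM.

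In BMP signaling, ligand-bound receptors phosphorylate SMAD1 and SMAD5, which join SMAD4, enter the nucleus, and bind DNA near genes such as *Id1*, *Id2*, and *Id3*. The ID proteins that result block basic helix-loop-helix transcription factors, and in mESCs grown with LIF they help to hold back neural differentiation. None of the 5 genes belongs to this textbook set. R3HDML is a putative secreted protein of the CAP superfamily, PDCL2 is a phosducin-like protein best known from male germ cells, LRP2 (megalin) is a large endocytic receptor, MID1 is a microtubule-associated ubiquitin ligase, and CKB is the brain-type cytosolic creatine kinase, which transfers phosphate between ATP and creatine.

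The 5 genes lie on 4 chromosomes of GRCm38. *R3hdml* (ENSMUSG00000078949) is at chr2:163492318-163502612 on the plus strand and *Lrp2* (ENSMUSG00000027070) at chr2:69424340-69586065 on the minus strand. *Pdcl2* (ENSMUSG00000029235) occupies chr5:76312115-76331156 on the minus strand, *Mid1* (ENSMUSG00000035299) chrX:169685199-170005736 on the plus strand, and *Ckb* (ENSMUSG00000001270) chr12:111669361-111672338 on the minus strand. All are annotated as protein coding. The antisense gene *Hnf4aos*, which overlaps *R3hdml*, had 0 UMIs in the cells of both libraries. Inside *Mid1*, the opposite-strand genes *4933400A11Rik* (0 and 1 UMIs) and *Gm15726* (6 and 3 UMIs) were nearly silent.

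Promoter windows from RefSeq (GRCm38.p6), 250 bases before to 50 after an annotated start, were found for all 5 genes and searched on both strands for 4 strings of letters linked to SMAD binding, namely GGCGCC and its variant GGAGCC from BMP target genes, CAGACA with the SMAD box in it, and the palindrome with that box on both strands, GTCTAGAC. Windows are printed for *R3hdml*, which of the 5 genes had the highest *Id1* class contrast in WT cells, and *Lrp2*, the only one with several matches. They run 5′ to 3′ on the gene's strand, with matches on either strand in capitals.
R3hdml, chr2:163492068-163492367, plus strand: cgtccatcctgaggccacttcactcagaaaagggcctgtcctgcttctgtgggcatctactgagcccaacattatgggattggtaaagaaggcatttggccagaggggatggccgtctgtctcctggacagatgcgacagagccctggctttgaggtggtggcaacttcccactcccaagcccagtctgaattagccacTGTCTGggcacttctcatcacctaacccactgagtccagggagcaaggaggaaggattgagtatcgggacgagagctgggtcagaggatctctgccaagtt
Lrp2, chr2:69585980-69586279, minus strand: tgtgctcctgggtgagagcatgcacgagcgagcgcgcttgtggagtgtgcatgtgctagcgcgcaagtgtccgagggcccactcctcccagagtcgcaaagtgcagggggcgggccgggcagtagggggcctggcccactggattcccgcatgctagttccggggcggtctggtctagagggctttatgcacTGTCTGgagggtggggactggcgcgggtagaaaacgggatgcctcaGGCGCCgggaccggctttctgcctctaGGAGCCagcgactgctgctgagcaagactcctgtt
The *R3hdml* window held 1 match, CAGACA read on the opposite strand (TGTCTG), beginning 51 bases before the start. In the *Lrp2* window the same letters began 58 bases before the start, GGCGCC 12 bases before it, and GGAGCC at base 16 after it; GENCODE places the start of *Lrp2* 36 bases further upstream. No match was found in the windows of *Pdcl2* and *Ckb*, and of the 3 windows of *Mid1* the third held GGAGCC, beginning 40 bases before its start. CAGACA was present in 21% of all 32851 windows of the table, GGAGCC in 30.8%, GGCGCC in 11.9%, and GTCTAGAC in 0.213%, so a match to the short strings is common. In base composition the windows also differed, since *Ckb* had 22 CpG dinucleotides, *Lrp2* 20, *Pdcl2* 7, and *R3hdml* 5, against a median of 7 over all windows. *Id1* has no entry in the table.

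*R3hdml* had 1084 UMIs in WT (11.3 CPM, 10.6 to 12.0) and 455 UMIs where S1/5 dKO was the label (4.17 CPM, 3.80 to 4.58). All ratios between the libraries are given relative to WT, and for *R3hdml* the log2 ratio was −1.44 (−1.60 to −1.28), a 2.71-fold lower level. Of the 9691 genes whose UMIs in both libraries came to 500 or more, it was the 3rd from the lowest, just behind the SMAD target *Id2*, which went from 57.1 to 16.8 CPM (log2 ratio −1.76). These ratios chose the genes and are given as a description.

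The levels of *Pdcl2* and *Lrp2* were low in both libraries. *Pdcl2* was at 5.63 CPM in WT (5.16 to 6.12, 540 UMIs) but at 2.23 CPM in the second library (1.96 to 2.53, 243 UMIs), a log2 ratio of −1.34 (−1.56 to −1.11) and the 4th from the lowest. *Lrp2* was at 4.49 CPM (4.08 to 4.94, 431 UMIs) and 1.91 CPM (1.66 to 2.19, 208 UMIs), a log2 ratio of −1.24 (−1.48 to −0.99) and the 5th. For neither gene did the counting intervals of the 2 libraries overlap, but both were picked for this difference, so nothing is read from that.

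*Mid1* and *Ckb* rest on many more UMIs. *Mid1* was at 141 CPM in WT (138 to 143, 13498 UMIs) but at 75.6 CPM in cells labelled S1/5 dKO (74.0 to 77.3, 8244 UMIs), a log2 ratio of −0.90 (−0.94 to −0.86) that ranked 10th. *Ckb* was at 559 CPM (554 to 564, 53621 UMIs) and 403 CPM (399 to 407, 43927 UMIs). Its log2 ratio of −0.47 (−0.49 to −0.45) was the 156th from the lowest, far nearer to the bulk of genes than the other 4. For comparison, *Id1* was at 323 and 161 CPM (log2 ratio −1.01) and *Id3* at 103 and 61.5 CPM (log2 ratio −0.75).

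**Figure D1:**
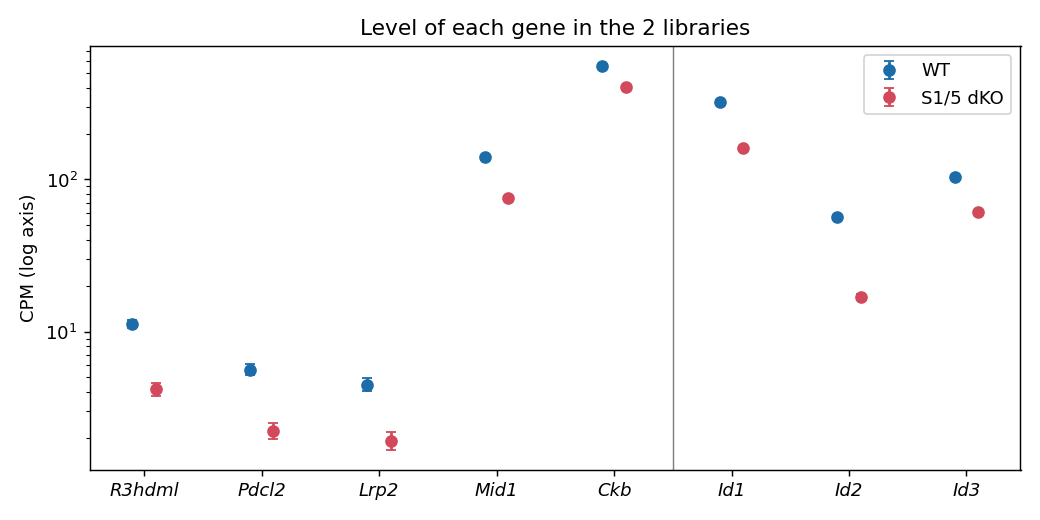
Level in CPM (log axis) of the 5 genes and of the SMAD targets *Id1*, *Id2*, and *Id3* in WT (blue) and under the S1/5 dKO label (red), 1 library each, with exact 95% Poisson intervals that cover counting error. Each gene was lower in red, from 2.71-fold for *R3hdml* to 1.39-fold for *Ckb* among the 5 genes, and 3.39-fold for *Id2*.

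A level at least 2-fold lower was seen for 3 of the 5 genes and for 59 of 13654 genes with at least 50 UMIs, which is 0.432% of them; since the rule used this contrast, nothing is read from the count. An interval of the log2 ratio wholly below 0, seen for all 5 genes, was found for 19.6% of genes. The genes next to them in the order of ratios show where the choice stopped. *Klhl26*, just after *Lrp2*, was at 7.60 and 3.73 CPM (log2 ratio −1.02), and *Mid1* stood between *Gm3336* (−0.96) and *Hmox1* (−0.87). *Ckb* had *Gpc4* (−0.47) and *Tmem161a* (−0.47) on either side.

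*Mid1* and *Ckb* were detected in a smaller share of cells in the library labelled S1/5 dKO. After each cell was thinned to 10000 UMIs, which left out 43 WT cells and 67 cells of the other library, *Mid1* was detected in 72.4% of 2193 WT cells (70.5 to 74.3) and in 51.1% of 2843 cells labelled S1/5 dKO (49.3 to 53.0). For a rate that is the same in every cell, the shares would be 75.2% and 52.8%. *Ckb* was detected in 97.3% and 94.2% of cells, against 99.7% and 98.3% for an even rate. At least 3 *Ckb* UMIs were found in 83.0% of WT cells and 66.2% of the others.

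The 3 sparse genes were also detected in fewer cells, but at this depth their share is tied to their mean and does not show how evenly they were spread. *R3hdml* was detected in 9.17% of WT cells (7.99 to 10.5) and 3.62% of cells labelled S1/5 dKO (2.97 to 4.38). *Pdcl2* was detected in 5.70% and 1.83% of cells, and *Lrp2* in 4.15% and 2.00%. *Id1*, with a higher mean, was detected in 71.2% and 55.5% of cells when an even rate gives 96.1% and 78.2%, so its UMIs were gathered in part of the cells. Without thinning, *R3hdml* was seen in 30.5% of WT and 12.2% of the other cells, below the 37.0% and 14.3% that an even rate at each cell's depth gives, with at most 10 and 5 UMIs in any cell.

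**Figure D2:**
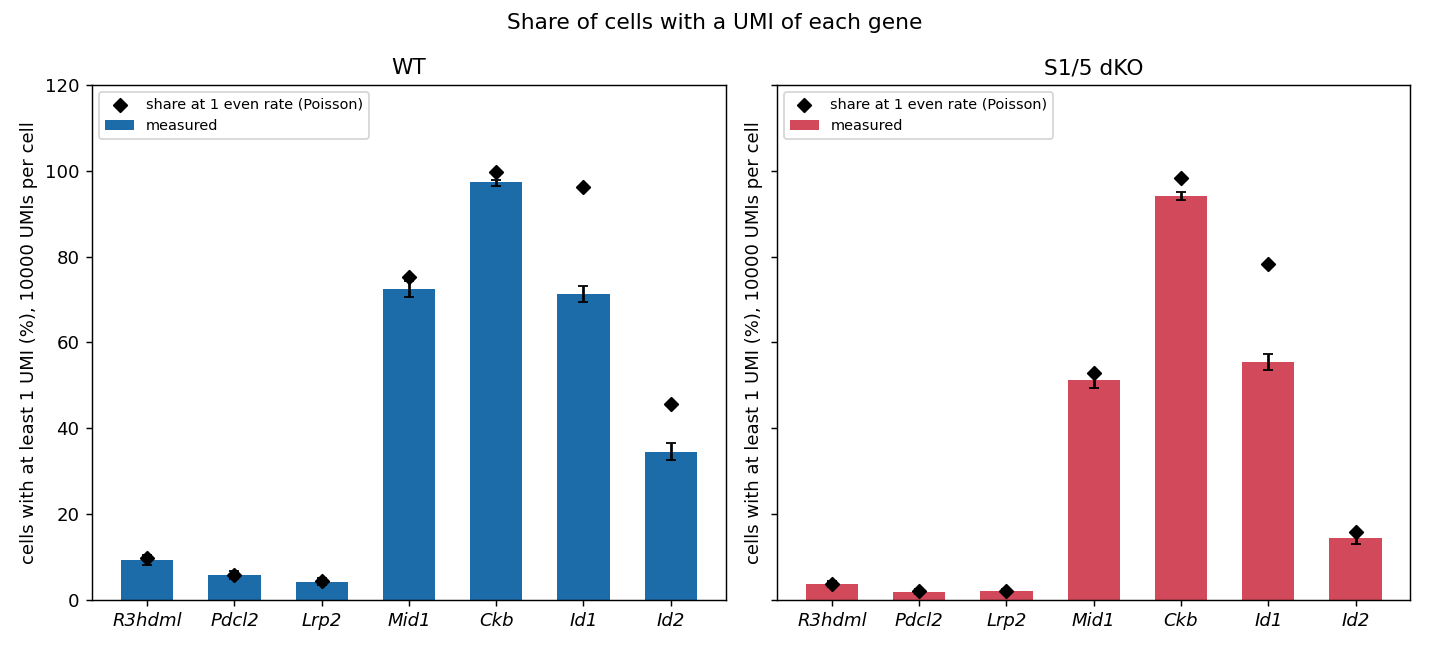
Share of cells with at least 1 UMI of each gene after thinning to 10000 UMIs per cell (bars with exact 95% binomial intervals), WT on the left and the library labelled S1/5 dKO on the right, with the share that the same mean would give at 1 even rate over cells (diamonds). In WT, *Mid1* lies at 72.4% against a diamond at 75.2%, and *Id1* at 71.2% against 96.1%; for *R3hdml*, *Pdcl2*, and *Lrp2* the low mean ties bar and diamond together.

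Free RNA in the droplets carried these genes as well. In barcodes with 10 to 100 UMIs, which hold no cell, *Mid1* was at 226 CPM in the WT library, against 122 CPM in the other, which is 1.60 and 1.61 times its level in the cells. Its log2 ratio between the libraries in these barcodes was −0.89 (−1.12 to −0.65). *Ckb* was at 444 and 362 CPM there, 0.795 and 0.899 times its level in the cells. The other 3 genes had 4 to 10 UMIs in these barcodes of either library, too few to compare. The part of free RNA in the share of *Mid1*-positive cells was not tested.

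To ask whether the genes follow *Id1*, cells were placed in 5 classes by their *Id1* UMIs after thinning (0, 1, 2 to 3, 4 to 6, and 7 or more), and the UMIs of each gene at full depth were summed per class. In WT, 28.8% of cells had no *Id1* UMI and 14.6% had 7 or more; in the library labelled S1/5 dKO these shares were 44.5% and 4.33%. The median depth hardly differed between the lowest and the highest class of WT, at 38664 and 38207 UMIs. *Id2* and *Id3*, the reference targets, were higher in the highest than in the lowest class of WT cells by 2.27 and 2.07 on the log2 scale, the 1st and 2nd of the 8027 genes with at least 500 UMIs. All cells came from 1 library, so these contrasts describe that culture and carry counting error only.

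*R3hdml* went with *Id1* in WT cells. Its level was 8.34 CPM in the class without *Id1* UMIs, then 9.63, 11.5, and 12.9 CPM, and 17.5 CPM in the highest class. The log2 ratio of the highest to the lowest class was 1.07 (0.80 to 1.34), the 6th highest of the 8027 genes, whose 5th to 95th percentiles ran from −0.20 to 0.34. A value at least 1.5-fold higher in the highest class was reached by 0.847% of these genes. The level went up at each of the 4 steps for *R3hdml* and for 217 of the genes (2.7%). With *R3hdml* UMIs thinned like those of *Id1*, the log2 ratio was 0.59 (−0.02 to 1.20), an interval that is wide because few UMIs remain. Without the cells that had an *Sp5* or *Fgfbp1* UMI it was 1.13 (0.83 to 1.44).

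Markers of 2C-like cells differed between cells with and without a UMI of some of the 5 genes. In each case given here, 1 cell held nearly all UMIs of these markers in the higher group. In WT they summed to 14.6 CPM in the 201 cells with an *R3hdml* UMI after thinning and to 0.745 CPM in the other 1992, and 123 of the 125 UMIs in the first group came from 1 cell, which had 3 *R3hdml* UMIs. In the library labelled S1/5 dKO they were at 19.2 CPM in cells with a *Pdcl2* UMI against 2.91 CPM in those without, and at 26.7 CPM in cells without a *Ckb* UMI against 1.75 CPM in those with one. There, 1 cell held all 38 UMIs of the *Pdcl2* group and another all 169 of the group without *Ckb*. With cells of at least 5 2C-like UMIs left out, the *Id1* contrast of *R3hdml* in WT was again 1.07 (0.80 to 1.34), and its log2 ratio between the libraries −1.44.

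Cell by cell, the pairing was weak. Over 2236 WT cells, the Pearson correlation of *R3hdml* with *Id1* was 0.152, above 99.8% of 8030 genes, but only 0.047 after thinning. That of *Ckb* was 0.156 at full depth and 0.100 after thinning, both above 99.8% of genes. The thinned value of *R3hdml* was above 95.7% of genes. *Id2* and *Id3* reached 0.485 and 0.474 at full depth. Every pair of genes in a cell shares its depth, and sparse counts pull correlations toward 0. The genes most like *R3hdml* in WT cells were *Id2* (0.198), the CDK inhibitor gene *Cdkn1c* (0.158), and *Id1* itself, among genes with at least 500 UMIs. No other of the 5 genes had an *Id* gene among its 3 nearest.

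*Ckb* differed from *R3hdml* in shape. It stayed at 537, 532, and 539 CPM in the 3 lower classes of WT cells, was 567 CPM in the class of 4 to 6, and reached 666 CPM (652 to 680) in the highest class. The log2 ratio of highest to lowest was 0.31 (0.27 to 0.35), higher than in 93.9% of the genes and so below their 95th percentile. The genes most like it were *Fabp3* (0.391), which encodes a fatty acid binding protein, *Fxyd6* (0.273), and the chaperone gene *Hsp90aa1* (0.262). Between the libraries these 3 genes differed little, with log2 ratios of −0.06, −0.06, and 0.04.

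For *Mid1*, the WT classes were level, at 143, 142, 136, 141, and 142 CPM from lowest to highest. The log2 ratio was −0.01 (−0.09 to 0.07), with an upper limit far below the value of *R3hdml*. The Pearson correlation of *Mid1* with *Id1* was slightly negative, at −0.043 with 4.25% of genes lower, and −0.024 after thinning. *Mid1* was most like the mitochondrial transcripts *mt-Co1* (0.258) and *mt-Nd4* (0.238) and the elongation factor gene *Eef2* (0.245). *Lrp2* was at 4.55, 3.89, 4.77, 4.15, and 5.18 CPM, with a log2 ratio of 0.19 (−0.26 to 0.63), an interval that holds 0 and is wide because the classed cells had 430 *Lrp2* UMIs. Its nearest genes were *Peg3* (0.133), *Tpm1* (0.104), and *Chd8* (0.103).

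*Pdcl2* ran the other way. From 6.78 CPM in WT cells without *Id1* UMIs it went down to 5.98, 5.00, 4.71, and 4.89 CPM, with a log2 ratio of −0.47 (−0.90 to −0.06). Of the 8027 genes, 0.374% had a lower value. These genes were not matched to *Pdcl2* for UMIs, and *Pdcl2* had 540 in the classed cells. The interval of *Pdcl2* also held their 5th percentile, −0.20, so nothing is read from this rank. With *Pdcl2* UMIs thinned like those of *Id1*, the log2 ratio was −0.23 (−1.09 to 0.57), an interval that holds 0. In WT cells with a *Pdcl2* UMI after thinning, *Id1* was at 243 CPM, against 328 CPM in those without; for *R3hdml* these values were 398 and 316 CPM. *Pdcl2* was most like *Napsa* (0.140), *Rpl10l* (0.101), and *Fbxo15* (0.096), of which *Napsa* too had less mRNA where the label was S1/5 dKO (log2 ratio −0.83).

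**Figure D3:**
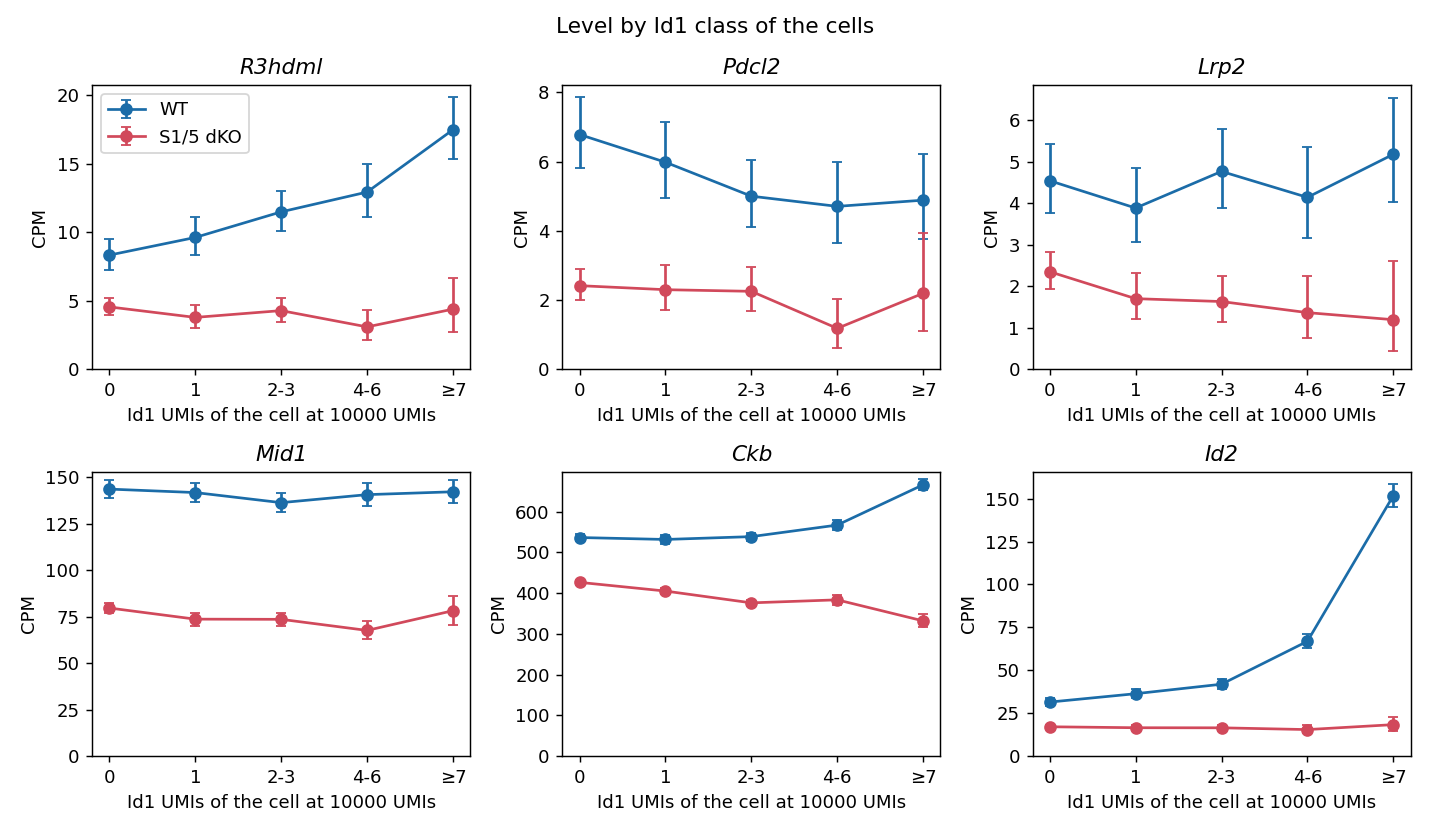
Level in CPM of the 5 genes and *Id2* in cells classed by *Id1* UMIs at 10000 UMIs per cell, WT in blue and the library labelled S1/5 dKO in red, with exact 95% Poisson intervals; each vertical axis starts at 0. *R3hdml* climbs from 8.34 to 17.5 CPM in blue and has no steady course in red, *Mid1* lies between 136 and 143 CPM in blue and between 67.6 and 79.6 CPM in red, and the red points lie below the blue ones of the same class throughout.

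In WT cells, 1 of the 5 genes was at least 1.5-fold higher in the highest *Id1* class, against 0.847% of genes with at least 500 UMIs. An interval above 0 was seen for 2 of the 5, against 13.3% of those genes. *Lrp2* did not reach 500 UMIs in WT. In the library labelled S1/5 dKO, 3.67% of genes with at least 500 UMIs reached a 1.5-fold higher level in the highest class. Of the 5 genes, *Mid1* and *Ckb* had that many UMIs there and did not reach it, and the contrast was near 0 for *Id2* (0.10) and *Id3* (−0.03). *R3hdml* was there at 4.56 CPM in the lowest and 4.4 CPM in the highest class, a log2 ratio of −0.052 (−0.76 to 0.58) that rests on 22 UMIs in the highest class; thinned, it was 1.01 (−0.21 to 2.06), so that the direction was not fixed by these counts. For *Ckb* the level went down from 427 to 332 CPM (log2 ratio −0.36, −0.43 to −0.29), opposite to WT. *Pdcl2* (−0.14), *Lrp2* (−0.97), and *Mid1* (−0.03) all had intervals that held 0, although *Mid1* was lower in the class of 4 to 6 (67.6 CPM, 62.8 to 72.6) than in the lowest (79.6 CPM, 77.1 to 82.2).

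At matched *Id1* class, the 5 genes were lower in the library labelled S1/5 dKO in each of the 5 classes. Every interval was below 0, but the share of all genes with this was not computed, so nothing is read from it. A lower level in all 5 classes was seen for 14.2% of genes with at least 500 UMIs, and one at least 1.25-fold lower in all 5, which also holds for the 5 genes, for 0.98%; the rule used this contrast. The mean over classes, weighted by WT cell shares, was −1.42 for *R3hdml*, −1.41 for *Pdcl2*, −1.39 for *Lrp2*, −0.91 for *Mid1*, and −0.52 for *Ckb*, close to the log2 ratios over all cells. Matching was not exact, because *Id1* itself was at 1136 CPM in the highest class of WT and 768 CPM in that of the other library, and at 58.3 and 41.6 CPM in the lowest.

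For *R3hdml* and *Ckb* the intervals of the lowest and the highest class did not overlap. The share of all genes with such a gap was not computed, so nothing is read from it. For *R3hdml* the log2 ratio was −0.87 (−1.15 to −0.59) among cells without *Id1* UMIs and −1.99 (−2.69 to −1.36) among those with 7 or more. For *Ckb* it went from −0.33 (−0.36 to −0.30) to −1.0 (−1.08 to −0.93). For *Lrp2* the log2 ratio went from −0.95 (−1.34 to −0.56) down at each step to −2.11 (−3.61 to −0.92), with overlapping intervals and 6 UMIs in the last class of the second library. *Mid1* kept to between −1.06 and −0.85 over the classes. *Id2* had the steepest course, from −0.88 to −3.04, and *Id3* went from 0.00 to −2.10.

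A second reading of the same values asks how far the smaller share of *Id1*-rich cells would carry each gene. Had WT cells kept their level in each class but been present in the class shares of the library labelled S1/5 dKO, *R3hdml* would have been at 10.2 CPM, a log2 change of −0.15 against the measured −1.43 in the thinned cells. The same sum gave 0.08 for *Pdcl2*, −0.02 for *Lrp2*, 0.00 for *Mid1*, and −0.04 for *Ckb*. It gave −0.38 for *Id2* and −0.34 for *Id3*, whose measured log2 ratios were −1.76 and −0.74. For *Id1* itself the sum gave −0.70, whereas the measured log2 ratio was −1.01. The sum thus did not recover the whole change of the gene by which cells were classed. These values carry no interval, and whether class shares account for any part of the differences was not tested.

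**Figure D4:**
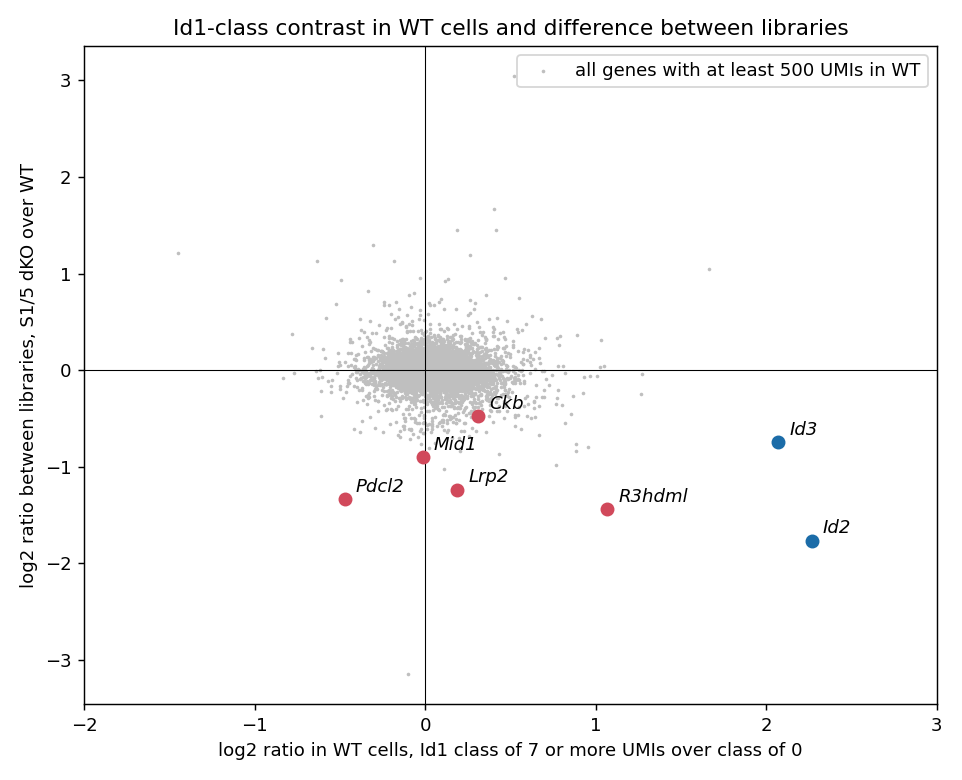
Log2 ratio of the highest to the lowest *Id1* class in WT cells (horizontal) against the log2 ratio between the libraries, S1/5 dKO label relative to WT (vertical); gray points are genes with at least 500 UMIs in WT, red points the 5 genes and blue points *Id2* and *Id3*. *R3hdml* lies at 1.07 on the horizontal axis, toward *Id3* (2.07) and *Id2* (2.27), while *Mid1* lies at −0.01 and *Pdcl2* at −0.47.

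From cell to cell, correlations among the 5 genes were weak. Over the 10 pairs in WT cells, Pearson values ran from −0.033 (*Mid1* with *Ckb*) to 0.0997 (*R3hdml* with *Ckb*), and the latter was 0.026 after thinning. *R3hdml* with *Lrp2* was at 0.061, and at 0.098 after thinning. For comparison, the 95th percentile of full-depth correlations with *R3hdml* was 0.051 over genes with at least 500 UMIs. Within strata of cells, each gene was lower in the library labelled S1/5 dKO than in WT throughout. In 3 groups of cells by UMIs of 8 mitotic genes, the log2 ratio of *R3hdml* was −1.06, −1.56, and −1.63 from the lowest to the highest group, and that of *Mid1* −0.86, −0.94, and −0.87. Cells with a UMI of *Sp5* or *Fgfbp1* made up 19.0% of WT and 22.5% of the other library, and in them *Ckb* was at 612 and 470 CPM, compared with 547 and 384 CPM in the rest. Their share went up with *Id1* class in WT, from 16.3% to 24.4%, and down in the library labelled S1/5 dKO, from 28.4% to 12.2%; without these cells the *Id1* contrast of *Ckb* was 0.33 in WT and −0.32 in the other library.

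In the lists of families and pathways outside the BMP list, no gene with at least 50 UMIs was 2-fold lower apart from members, and the median over all genes was a log2 ratio of −0.01. Of 9 BMP-SMAD target and feedback genes with at least 50 UMIs, all had an interval below 0 and 2, *Id1* and *Id2*, were at least 2-fold lower, with a median of −0.67; over all genes these shares were 19.6% and 0.432%. Among the 5 creatine genes measured beside *Ckb*, no interval lay below 0 and 1 lay above it, which 20.7% of all genes did. *Slc6a8*, the creatine transporter, was at 19.5 and 23.2 CPM (log2 ratio 0.25), and *Ckmt1*, the mitochondrial creatine kinase, at 6.74 and 6.27 CPM (−0.10).

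Among the relatives and partners of *Lrp2* reported here, 5 of 8 with at least 50 UMIs had an interval below 0, against 19.6% of all genes, with a median of −0.25. *Lrpap1*, which encodes the chaperone RAP that escorts LRP2 through the secretory pathway, was at 94.2 and 70.2 CPM (log2 ratio −0.42, −0.47 to −0.38), the largest difference in the list. *Lrp1* was at 8.50 and 7.38 CPM (−0.20, −0.35 to −0.06), and *Lrp6* at 10.6 and 9.66 CPM (−0.14, −0.27 to −0.01). *Dab2* and *Cubn*, which work with LRP2 in endocytosis, had 49 and 56 UMIs and 5 and 9 UMIs. Primitive endoderm genes, which mark an embryonic lineage that makes LRP2, summed to 3.29 CPM in WT cells with an *Lrp2* UMI (13 UMIs) and 2.82 CPM in those without.

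The phosducin family genes *Pdcl3* (143 and 142 CPM, log2 ratio −0.01) and *Pdcl* (15.0 and 14.2 CPM, −0.08) were level beside *Pdcl2*. Of 6 germ cell genes measured, 5 had an interval below 0 (19.6% of all genes), with a median of −0.39, from −0.90 for *Tex101* to −0.03 for *Sycp3*, and *Prm1* had no UMI. The germ cell list summed to 34.6 CPM in WT and 29.3 CPM in the library labelled S1/5 dKO. In WT cells it was at 36.4 CPM with a *Pdcl2* UMI and 34.5 CPM without.

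Of the genes whose products act with MID1, the catalytic subunit genes of PP2A, *Ppp2ca* (206 and 208 CPM) and *Ppp2cb* (42.0 and 42.7 CPM), had intervals that held 0. Of the 5 genes measured, 2 had an interval below 0 and 1 above it, against 19.6% and 20.7% of all genes. *Igbp1*, which encodes the α4 protein that bridges MID1 and PP2A, was at 75.6 and 70.6 CPM (log2 ratio −0.10), and *Mid1ip1* at 8.67 and 11.4 CPM (0.40). In the CAP superfamily, *Glipr2* alone had 50 UMIs, at 3.54 and 3.89 CPM, and its interval held 0.

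Genes beside the 5 genes on the chromosome had medians near 0, except next to *R3hdml*. Of up to 5 neighbors with at least 50 UMIs on each side, 10 for *R3hdml*, *Pdcl2*, *Lrp2*, and *Ckb* and 7 for *Mid1*, the median log2 ratio was −0.18 beside *R3hdml*, −0.04 beside *Pdcl2*, 0.00 beside *Lrp2*, 0.07 beside *Mid1*, and 0.03 beside *Ckb*. Beside *R3hdml*, 8 of the 10 had a log2 ratio below 0 and 4 (*Jph2*, *2900093K20Rik*, *Ttpal*, and *Serinc3*) an interval below 0, compared with 19.6% of all genes; beside the others 1 or 2 did. The lowest neighbor was *Gm15247*, an antisense gene that lies inside *Mid1*, with 74 and 42 UMIs (log2 ratio −1.0, −1.58 to −0.44). *Jph2*, 94.3 kb from *R3hdml*, had 33 and 19 UMIs (−0.98, −1.88 to −0.12), while *Fitm2* and *Ttpal*, the nearest on each side, were at 0.08 and −0.37. *Clock*, 7.32 kb from *Pdcl2*, was at −0.07, and *Trmt61a*, 5.77 kb from *Ckb*, at 0.08. Beside *Mid1*, *Gm21887* at 3.92 kb was at −0.21 (−0.31 to −0.11), and *Hccs*, 365 kb away on the other side, at 0.07 (−0.03 to 0.17).

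**Figure D5:**
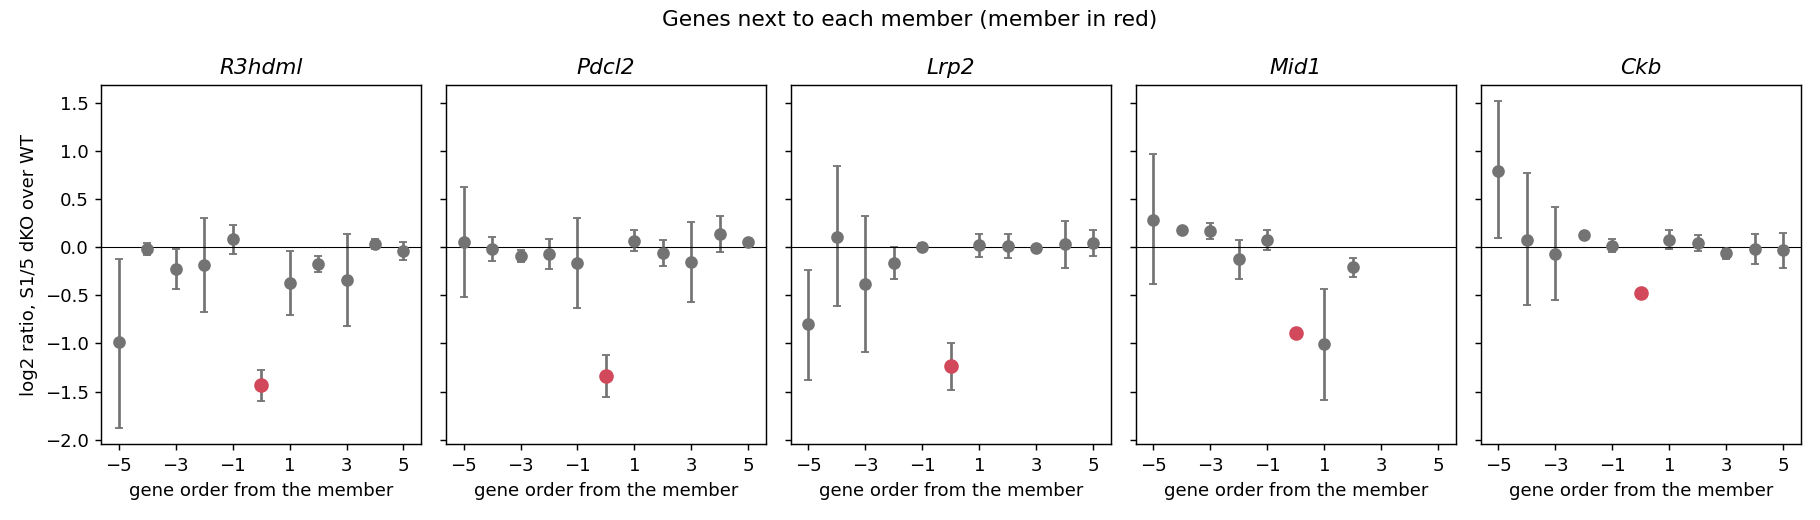
Log2 ratio between the libraries, S1/5 dKO label relative to WT, for each of the 5 genes (red) and its neighbors with at least 50 UMIs in gene order along the chromosome (gray), with exact 95% intervals. The red points lie between −1.44 and −0.47, and the gray medians between −0.18 and 0.07.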

How the data were processed

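UMI counts per gene and barcode were deposited by the authors as raw, unnormalized matrices. Per the submitters' processing notes, Cell Ranger 3.0.2 and mm10 were used. Cells were kept as in the study's methods (at least 1000 detected genes, at most 5% mt- UMIs), and no doublets were removed. Counts were summed over cells and divided by the total. Ratios have exact conditional binomial intervals, levels Poisson intervals, and shares Clopper-Pearson intervals, all at 95% and covering counting error only. Each condition has 1 library and cells are not replicates, so no test was run. Correlations used ln(1 + UMIs per 10000). Thinning drew UMIs at random without replacement. The procedure was tested on simulated data. Positions are from GENCODE M21, and 31011 of the 31053 listed genes matched it. Promoters are from RefSeq (GRCm38.p6), with all 5 members matched by symbol.

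The members and lists were chosen with earlier results of these data known. The genes named are the members, *Id1*, *Id2*, *Id3*, *Smad1*, *Smad5*, the list genes, the 3 genes most correlated with each member in WT, the neighbors, and the genes next in the order of ratios; *Sp5* and *Fgfbp1* define a subset of cells. 1 gene of the lists is not reported here. Alternatives covered scaling (TMM in edgeR 4.0.16 on R 4.3.3, and median), cell filters, thinning, and cell subsets; removal of *Sp5* or *Fgfbp1* cells and thinning in the *Id1* contrast of the library labelled S1/5 dKO, and removal of cells with at least 5 2C-like UMIs, were added after seeing the data. Python 3.11.15, numpy 2.4.6, scipy 1.17.1, pandas 2.3.3, and matplotlib 3.10.9 were used.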

Additional observations from a re-analysis of the deposited data

Results flagged for a closer look

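The contrast of the highest over the lowest *Id1* class had opposite signs in the 2 libraries for *Ckb*, *R3hdml*, and *Lrp2*. The share of all genes with opposite signs was not computed, so nothing is read from the number of genes. The difference was not tested because each condition has 1 library. For *Ckb* the log2 ratio was 0.31 (0.27 to 0.35) in WT and −0.36 (−0.43 to −0.29) in the library labelled S1/5 dKO, with both intervals clear of 0. For *R3hdml* it was 1.07 (0.80 to 1.34) in WT and −0.052 (−0.76 to 0.58) in the library labelled S1/5 dKO, where thinned UMIs gave 1.01 (−0.21 to 2.06). For *Lrp2* it was 0.19 (−0.26 to 0.63) and −0.97 (−2.45 to 0.19), on 6 UMIs in the highest class of the second library, so that neither sign is set by the counts.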

How the results depend on the processing

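In each of the 70 recomputed ratios between the libraries, all 5 genes stayed lower in the library labelled S1/5 dKO, and 58 lay inside the counting interval of the reported value; TMM and median scaling moved all ratios by 0.01. By mitotic group, values outside that interval were −1.06 and −1.63 for *R3hdml* (lowest and highest), −1.08, −1.83, and −1.11 for *Pdcl2* (lowest, middle, highest), −1.49 for *Lrp2* (lowest), −0.94 for *Mid1* (middle), and −0.44, −0.45, and −0.50 for *Ckb*. Thinning to 10000 UMIs gave −1.62 for *Pdcl2*, and leaving out *Sp5* or *Fgfbp1* cells gave −0.51 for *Ckb*. The number of genes at least 2-fold lower depends on the minimum of UMIs: 7 at 500 UMIs, 171 at 20, and 846 with 1 UMI in each library.

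For the *Id1* contrast in WT, *R3hdml* ranged from 0.59 (thinned *R3hdml* UMIs) to 1.28, with values above 0 in all 7 alternatives. With thinned UMIs the interval of *R3hdml* held 0 (−0.02 to 1.20). *Pdcl2* reached −1.15 with classes at 5000 UMIs. Its interval held 0 with thinned UMIs (−0.23, −1.09 to 0.57), without *Sp5* or *Fgfbp1* cells (−0.39, −0.85 to 0.06), and with classes of *Id3* (−0.57, −1.80 to 0.42). *Lrp2* was −0.47 thinned and 0.64 with classes of *Id3*, so it changed direction. *Mid1* was −0.10 (−0.18 to −0.02) by quintiles, an interval below 0, and −0.14 (−0.32 to 0.03) by *Id3*. *Ckb* was 0.50 at 5000 UMIs, 0.25 by quintiles, and 0.62 by *Id3*. In the library labelled S1/5 dKO, thinned UMIs gave 1.01 for *R3hdml*, −1.5 for *Pdcl2*, and −0.23 for *Ckb*. Thinning leaves fewer UMIs, but where values moved, the cause was not tested. With classes at 5000 UMIs the mean over classes could not be formed for *Lrp2*, which had 0 UMIs in the 25 cells of the highest class of the library labelled S1/5 dKO.

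Shares of cells with a UMI follow depth by construction. At full depth they were 30.5% and 12.2% (WT, then the library labelled S1/5 dKO) for *R3hdml*, 18.5% and 7.01% for *Pdcl2*, 16.1% and 6.49% for *Lrp2*, 95.7% and 85.7% for *Mid1*, and 99.5% and 99.3% for *Ckb*. At 5000 UMIs they were 5.11% and 2.44%, 2.81% and 1.01%, 2.49% and 0.975%, 48.0% and 31.5%, and 89.3% and 80.4% in the same order. No paired analysis was possible because each condition has 1 library, and no replicate could be left out for the same reason. Depth limits *Pdcl2* and *Lrp2* most, with 540 and 431 UMIs in WT.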
